A study of Mus musculus with 54 samples.

Results

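Motor neurons of the vagus nerve nucleus (CN10) from mice at postnatal day 56 (P56) were compared between mSOD mice, which carry the human mutant SOD1 transgene SOD1G93A, and wild-type (wt) littermates. The 6 libraries with these labels, 3 mSOD and 3 wt, were taken from the 54 libraries of the series, and every mouse gene was compared. The study collected motor neurons of several cranial nuclei and of the spinal cord by laser capture microdissection and sequenced their polyadenylated RNA with Smart-seq2, which has no molecular identifiers. The other libraries are used here to estimate the spread between replicates, and 3 pairs of groups serve as comparisons: CN10 at P112, the hypoglossal nucleus (CN12) at P56 and the oculomotor and trochlear nuclei (CN3/4) at P56, each mSOD and wt. P56 precedes the onset of weakness in this model.

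The dorsal motor nucleus of the vagus in the medulla holds cholinergic neurons that send parasympathetic fibres to thoracic and abdominal organs. They act on ganglia in the target organs, whereas the neighbouring hypoglossal neurons drive the muscles of the tongue. The transgene carries its own human promoter and is expressed in many cell types, so neurons and glia of the mSOD mice both hold the mutant protein. The labels do not tie libraries to animals, so the spread between replicates behind each p-value may in part be technical. In the fit of all 54 libraries, that spread was estimated over all 16 groups, not from the compared CN10 libraries alone. In bulk captured samples, fewer cells of a type and less RNA per cell cannot be told apart.

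The libraries held between 4201220 and 7847780 counts, and levels are given as CPM, the counts of a gene scaled to the size of its library. The human SOD1 row took 6.95%, 5.65% and 6.02% of the counts of the 3 mSOD libraries and between 0.000668% and 0.00459% of those of the wt libraries, so the transgene matched the label in all 6. For the lowest mSOD share the 95% Wilson interval was 5.64% to 5.67%, and for the highest wt share 0.00399% to 0.00529% (counting error only). Mouse Sod1 stood at 755, 685 and 650 CPM in mSOD and 764, 777 and 599 in wt, a log2 change of -0.03 (SE 0.24, adjusted p = 0.976, edgeR's quasi-likelihood test). The mSOD replicate 1 and wt replicate 3 libraries were the opposite ends of the first principal component (33.5% of the variance), and mSOD replicate 3 stood apart on the second (21.1%).

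The captured cells carried the markers of vagal motor neurons. Tbx20, a transcription factor of hindbrain visceral and branchial motor neurons, stood at 83.1, 55.3 and 65.3 CPM in mSOD and 31.9, 51.2 and 56.8 CPM in wt, and its median in the CN12 libraries was 0. Choline acetyltransferase (Chat) ranged from 70.2 to 111 CPM and peripherin (Prph) from 525 to 889 CPM over the 6 libraries. Markers of somatic motor neurons were scarce: Mnx1, Lhx3 and Lhx4 were at 0 in all 6, and Chodl, a marker of fast motor neurons, ranged from 0.951 to 8.25 CPM against a CN12 median of 284 CPM. Monoamine neuron markers were present in both genotypes, with a summed level of 256, 235 and 245 CPM in mSOD and 235, 170 and 298 CPM in wt, and their groups overlapped.

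**Figure D1:**
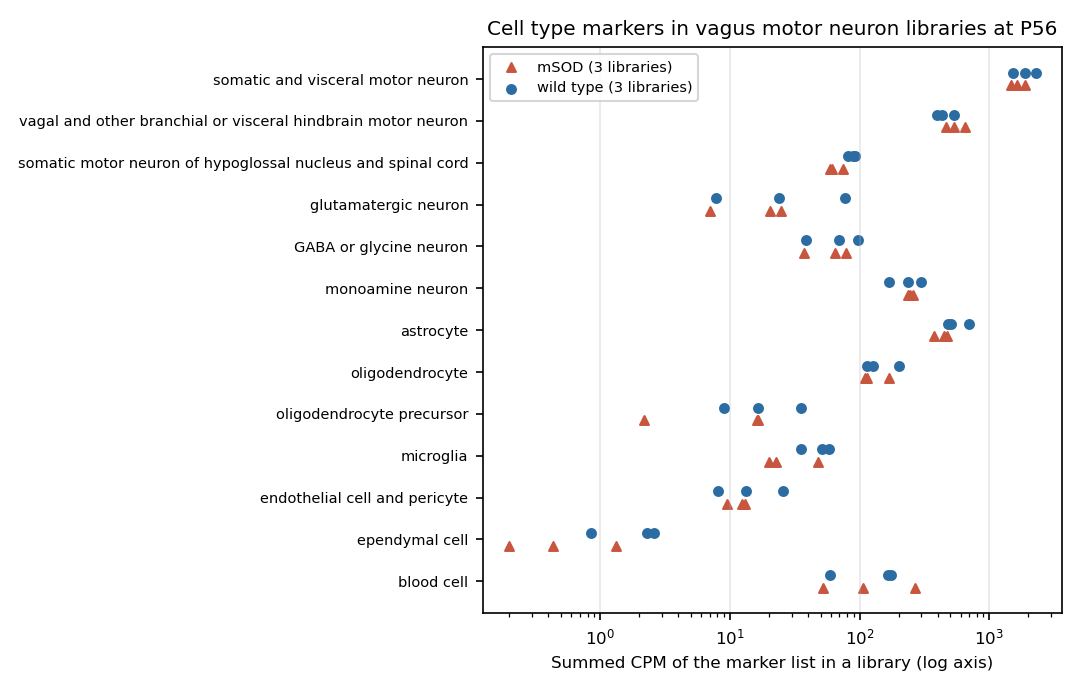
Summed CPM of each list of cell type markers in the 6 vagus libraries at P56 on a log axis, with circles for wt and triangles for mSOD. The astrocyte sums of the 3 mSOD libraries, 444, 471 and 377 CPM, all lie below those of the 3 wt libraries, 510, 699 and 483 CPM. Aldoc is the largest part of these sums, at 259, 323 and 237 CPM in mSOD and 341, 418 and 332 CPM in wt.

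Of the glial lists, the astrocyte sum did not overlap between genotypes (444, 471 and 377 CPM in mSOD, 510, 699 and 483 CPM in wt). Of its 12 markers, 11 had a lower fitted level in mSOD. The unadjusted p was under 0.05 for 2 of the 12 (16.7%), both lower, against 13.4% of all genes tested, 7.61% lower. The largest part of this sum was a single gene, Aldoc, at 259, 323 and 237 CPM in mSOD and 341, 418 and 332 CPM in wt. The groups overlapped for Slc1a2 (54.3, 63.5 and 40.7 CPM in mSOD, 49.5, 69.8 and 41.9 CPM in wt). They also overlapped for Slc1a3 and Gja1, so the separation of the sum does not hold across the abundant markers. The groups did not overlap in 3 of the 12 markers, all lower in mSOD, against 7.6% of all genes tested. Microglial markers summed to 20.03, 48.1 and 22.6 CPM in mSOD and 58.0, 51.2 and 35.2 CPM in wt, so the groups overlapped. Of 13 tested, 11 were lower, with a median log2 change of -0.79 that ranged from -2.05 to -0.51 without 1 library. An unadjusted p under 0.05 was reached by 1 of the 13 (7.69%), against 13.4% of all genes tested. The oligodendrocyte sums overlapped, at 167, 111 and 114 CPM against 128, 203 and 115 CPM. The part of these other cells in the gene results was not tested.

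Few genes separated the genotypes past the threshold. Of 18493 mouse genes tested, 3 (0.0162%) passed an adjusted p of 0.05 in edgeR's quasi-likelihood test, and all 3 were lower in mSOD: Caln1, Syndig1l and Mansc1. At an unadjusted p under 0.05 there were 2469 genes (13.4%), 1061 higher (5.74%) and 1408 lower (7.61%), and the median log2 change over all genes tested was -0.04. The 2 groups of libraries did not overlap in 2827 genes (15.3%), 7.69% with mSOD higher and 7.6% with mSOD lower.

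Caln1 (ENSMUSG00000060371) encodes calneuron 1, an EF-hand calcium sensor of neurons. It stood at 2.82, 1.94 and 1.40 CPM in the mSOD libraries and at 9.47, 5.94 and 13.6 CPM in the wt libraries. Every mSOD library was below every wt library. Behind these levels were 19, 9 and 7 counts in mSOD and 56, 31 and 57 counts in wt. Caln1 fell by 2.17 on the log2 scale in mSOD (SE 0.32, adjusted p = 0.000334, edgeR), from a mean of 9.66 ± 3.81 CPM to 2.05 ± 0.718 CPM (SD, n = 3 each). From the summed counts alone, wt exceeded mSOD 4.40-fold, with a 95% exact interval of 3.02 to 6.55 that covers counting error only. The call held without each of the 6 libraries in turn, with an adjusted p of at most 0.0330. It was lost in a limma-voom fit with sample quality weights (log2 change -2.06, adjusted p = 0.0816) and in a fit of these 6 libraries alone (log2 change -2.17, adjusted p = 0.415), which called no gene.

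Syndig1l (ENSMUSG00000071234), synapse differentiation inducing 1-like, belongs to a small family of membrane proteins whose founding member binds AMPA receptors. Its level was 0.148, 0.216 and 0.399 CPM in mSOD and 1.86, 2.88 and 3.33 CPM in wt. The groups were far apart relative to their spread, but the mSOD values rested on 1, 1 and 2 counts, against 11, 15 and 14 counts in wt. Syndig1l fell by 3.28 on the log2 scale (SE 0.59, adjusted p = 0.0111, edgeR), and the ratio of summed counts was 10.7 with a counting interval of 3.86 to 41.1. The call held in 2 of the 6 fits that left out 1 library. It was lost without mSOD replicate 1 (adjusted p = 0.279) and, with adjusted p between 0.0522 and 0.0565, without mSOD replicate 3, wt replicate 2 or wt replicate 3. Syndig1l was also lost in the fit of project P11355 alone (adjusted p = 0.223), with limma-voom (0.0819) and with only these 6 libraries (0.415).

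Mansc1 (ENSMUSG00000032718) encodes a membrane protein with a MANSC domain. It had no count in any of the 3 mSOD libraries and 14, 3 and 4 counts in the wt libraries, which are 2.37, 0.575 and 0.951 CPM. Against a floor of 3 counts per library the mSOD mean was at least 2.30-fold lower (adjusted p = 0.0353, edgeR). This call held without wt replicate 2 or wt replicate 3 and was lost without wt replicate 1 (adjusted p = 0.0825) and without mSOD replicate 1, 2 or 3 (adjusted p = 0.341, 0.0551 and 0.192). Mansc1 was also lost within project P11355 (adjusted p = 0.247), without the project term (0.108) and with limma-voom (0.0816). All 3 genes sit low in CN10, so their precision is set by few counts.

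**Figure D2:**
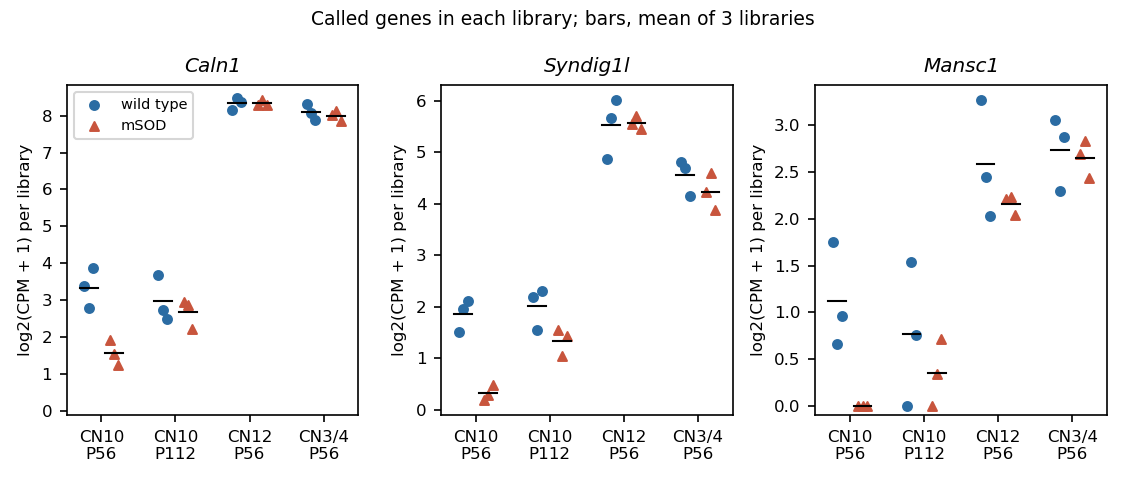
Level of Caln1, Syndig1l and Mansc1 as log2(CPM + 1) in each library of CN10 at P56, CN10 at P112, CN12 at P56 and CN3/4 at P56, with circles for wt, triangles for mSOD and a bar at the mean of 3 libraries. The genotypes stand apart in CN10 at P56, where Caln1 is at 2.05 CPM in mSOD and 9.66 CPM in wt on average; the CN12 and CN3/4 libraries hold far more Caln1 and overlap.

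Caln1 and Syndig1l were genes of high level in the other nuclei. Caln1 stood at 322 ± 36.8 CPM in wt and 321 ± 17.8 CPM in mSOD CN12 neurons, and at 272 ± 42.3 and 255 ± 23.8 CPM in CN3/4 (SD, n = 3 each). Its log2 change was -0.01 in CN12 (unadjusted p = 0.980), -0.09 in CN3/4 (unadjusted p = 0.692) and -0.41 in CN10 at P112 (unadjusted p = 0.200), all in edgeR's test. Tested directly, the Caln1 change in CN10 at P56 differed from that in CN12 by -2.16 (SE 0.40, adjusted p = 0.0367, edgeR), and Caln1 was the 1 gene called in that comparison (0.00541% of genes tested). That call was lost without mSOD replicate 3 or wt replicate 3 of CN10, and without wt replicate 1 or mSOD replicate 2 of CN12, each of which left no gene called. Against CN3/4 the Caln1 difference was -2.08 (SE 0.40, adjusted p = 0.0797) and against CN10 at P112 it was -1.76 (SE 0.45, adjusted p = 0.248), neither past the threshold. In CN10 at P112 the means were 7.39 ± 3.86 CPM in wt and 5.58 ± 1.68 CPM in mSOD (SD, n = 3 each).

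Syndig1l averaged 47.4 CPM in wt and 46.6 CPM in mSOD CN12 neurons. In CN10 at P112 it averaged 3.14 CPM in wt and 1.57 CPM in mSOD, a log2 change of -0.98 (unadjusted p = 0.0402). Its difference between CN10 and CN12 at P56 was -3.26 (adjusted p = 0.0673, edgeR) and did not pass. Mansc1 had a log2 change of -1.36 in CN10 at P112 (unadjusted p = 0.0975). No gene was called for a difference between CN10 at P56 and CN10 at P112, or between CN10 and CN3/4 at P56, where 1449 and 1059 genes had an unadjusted p under 0.05.

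Because Caln1 and S100b, another gene below, are much more abundant in CN12 than in CN10, genes of that kind were also listed after their values were seen and are given without a test. There were 32 genes at 50 CPM or more in CN12 wt at P112 and at least 20-fold lower in CN10. Of these, 21 had a lower and 11 a higher fitted level in mSOD CN10 at P56, with a median of -0.44, and 6 were lower (18.8%) and none higher at an unadjusted p under 0.05, against 7.61% lower over all genes tested. Caln1 and S100b, whose values prompted the list, are counted among these 6 and raise that share. The summed level of the 32 genes was 103, 140 and 140 CPM in mSOD and 226, 148 and 139 CPM in wt, so the groups overlapped and only wt replicate 1 was high. The part of neighbouring CN12 RNA in the Caln1 result was not tested.

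The size of the change in CN10 at P56 followed the GC content of the transcripts. Over 13519 protein-coding genes the Spearman correlation across genes between log2 change and GC content was -0.51 (genes are not independent replicates). With the genes divided into 5 equal bins by GC content, the median log2 change was 0.40 in the bin of lowest and -0.50 in the bin of highest GC content. Of the 2704 genes in the lowest bin, 450 were higher and 28 lower at an unadjusted p under 0.05, and in the highest bin the counts were 19 and 541. The correlation was -0.02 in CN10 at P112, 0.49 in CN12 at P56 and -0.18 in CN3/4 at P56. Per library, the gap between the highest and lowest bin was -0.93, 0.04 and -0.34 in mSOD and 0.01, 0.57 and 0.69 in wt, relative to the mean of the 6 libraries on the log2 scale. The group means differed by -0.83 with overlapping ranges (two-sided exact permutation p = 0.2, where the design allows no p below 0.1). The cause of this trend was not tested.

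**Figure D3:**
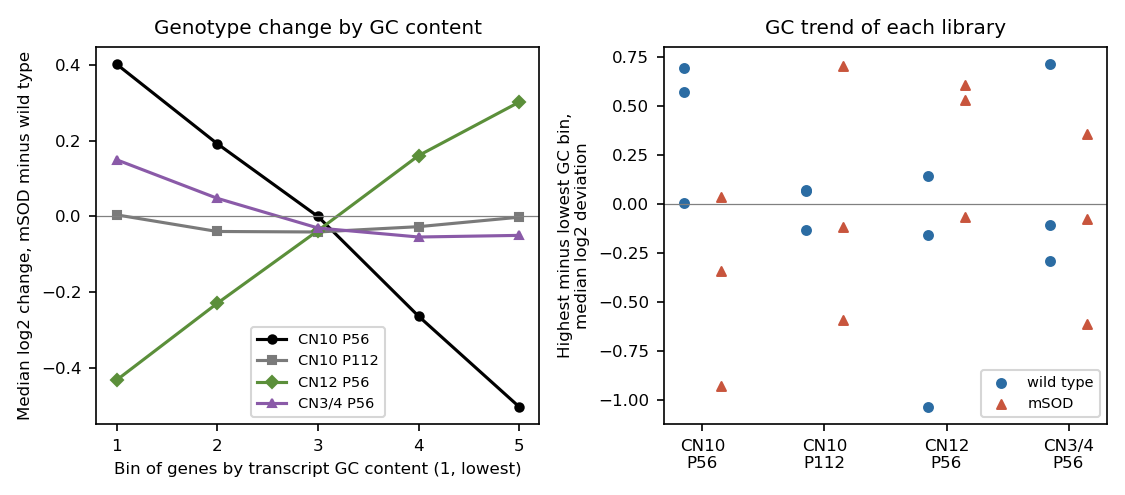
Left, median log2 change (mSOD minus wt) of protein-coding genes in 5 equal bins of GC content for 4 comparisons; right, for each library of the same 4 nucleus and age groups, the gap in log2 level between the bins of highest and lowest GC content. The CN10 P56 line runs from 0.40 to -0.50, the CN12 line runs the other way, and in the right panel the CN10 P56 mSOD and wt libraries overlap.

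The gene lists below are therefore given with the counts as deposited and also with a GC offset per library, an alternative chosen after the data were seen. Each list's share at an unadjusted p under 0.05 is to be read against 13.4% over all genes tested with the deposited counts and 8.67% with the offset. With the offset, 864 genes were higher and 740 lower at an unadjusted p under 0.05 the median over all genes tested was 0, and 4 genes passed the adjusted threshold. Caln1, Syndig1l and Mansc1 were 3 of the 4. The other was Odc1, which encodes ornithine decarboxylase, the rate-limiting enzyme of polyamine synthesis.

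Odc1 stood at 63.1, 76.4 and 55.7 CPM in mSOD and at 37.0, 28.8 and 45.2 CPM in wt, without overlap. With the counts as deposited its log2 change was 0.82 (SE 0.20, adjusted p = 0.163, edgeR), which did not pass. With the GC offset the change was 1.05 (adjusted p = 0.00683, edgeR), and DESeq2 gave an adjusted p of 0.0268. In the other 3 comparisons Odc1 also had an unadjusted p under 0.05 with a higher level in mSOD: its log2 change was 0.76 in CN10 at P112, 0.73 in CN12 at P56 and 0.42 in CN3/4 at P56. None of the differences between nuclei or ages passed for Odc1 (adjusted p of at least 0.872).

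Beyond these, the text names the 12 higher and 12 lower genes of smallest p among those whose groups did not overlap and whose mean reached 5 CPM in a group. With the deposited counts and all libraries in edgeR, none of these 24 but Caln1 passed the adjusted threshold. DESeq2 called 12 of the 24: Caln1, Odc1, Zfp160, Arrdc3, Os9, S100b, Dus1l, Nfyc, Rap1gap, Tmem143, Scap and Naa40. Higher genes that act on transcription or RNA were the zinc finger gene Zfp160 (24.8, 14.0 and 48.3 CPM in mSOD, 9.30, 8.82 and 6.18 CPM in wt, log2 change 1.83, adjusted p = 0.0896), the splicing factor gene Snrpb2 (log2 change 1.01), the mitochondrial tRNA methylation gene Trmt10c (1.29) and Aff2 (3.63). Aff2 rested largely on mSOD replicate 1, at 20.8 CPM beside 2.16 and 1.20 CPM in the other mSOD libraries and 0.845, 0.959 and 0 CPM in wt. Xpo1, the nuclear export receptor exportin 1, stood at 209, 171 and 218 CPM in mSOD and 82.0, 96.6 and 69.0 CPM in wt (1.27, adjusted p = 0.184). Its highest wt value was well below its lowest mSOD value.

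Arrdc3, an arrestin-domain adaptor of receptor trafficking, stood at 44.8, 20.9 and 38.7 CPM in mSOD and 9.80, 9.40 and 7.37 CPM in wt (log2 change 1.97, adjusted p = 0.0896, edgeR). Zdbf2, an imprinted gene expressed in brain, was 109, 87.0 and 115 CPM in mSOD against 41.6, 41.0 and 40.4 CPM in wt (1.34, adjusted p = 0.184). Dnaja1, a cochaperone of Hsp70, was the most abundant of these genes, at 1084, 769.7 and 847 CPM against 570, 433 and 440 CPM (0.90, adjusted p = 0.184). The remaining higher genes were Scrn3 (1.26), BC002059 (1.78) and Bmper (2.31), a secreted modulator of BMP signalling.

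The lower genes were of varied kinds. Os9, a lectin of endoplasmic reticulum degradation, stood at 20.2, 22.7 and 21.6 CPM in mSOD and 36.8, 47.0 and 66.1 CPM in wt (log2 change -1.22, adjusted p = 0.0802, edgeR). Scap, the escort protein of the sterol-sensing SREBP factors, was 19.7, 28.5 and 26.5 CPM against 48.7, 52.2 and 70.2 CPM (-1.19, adjusted p = 0.0896), and Gpat4, an enzyme of glycerolipid synthesis, had a change of -0.96 (adjusted p = 0.184). The mSOD values of Os9 lay within a narrow range, while its wt values were spread.

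S100b, a calcium-binding protein of glia and of some motor neurons, stood at 3.71, 10.4 and 7.38 CPM in mSOD and 21.3, 25.9 and 14.7 CPM in wt (log2 change -1.56, SE 0.34, adjusted p = 0.0802, edgeR). In CN12 wt at P56 it averaged 738 CPM, and the difference in its change between CN10 and CN12 was -2.05 (adjusted p = 0.0673). The astrocyte marker sums above, which include S100b and have Aldoc as their largest part, were also lower in the mSOD libraries. The groups overlapped for the astrocyte markers Slc1a2, Slc1a3 and Gja1. The part of astrocytes in the S100b values was not tested. Tmem143, a membrane protein, was 1.93, 2.16 and 2.59 CPM against 9.13, 6.14 and 7.85 CPM (-1.78, adjusted p = 0.0896).

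Signalling genes among the lower ones were Rap1gap, which turns off the GTPase Rap1 (-1.20), Arrb1, beta-arrestin 1 (-1.09), and Cntnap1, an axonal protein of the paranodal junction (-0.92). Others were Nfyc, a subunit of the CCAAT-binding factor (-1.45), Dus1l, a tRNA dihydrouridine synthase (-1.34), and Naa40, an N-terminal acetyltransferase of histones (-1.51). All 24 named genes kept their direction and an unadjusted p under 0.05 with the GC offset, but 20 of them had a smaller change with it. All 24 kept their direction when any 1 library was left out, which follows from their choice by groups that do not overlap. In these fits 23 kept an unadjusted p under 0.05, after a choice by smallest p in the same libraries.

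**Figure D4:**
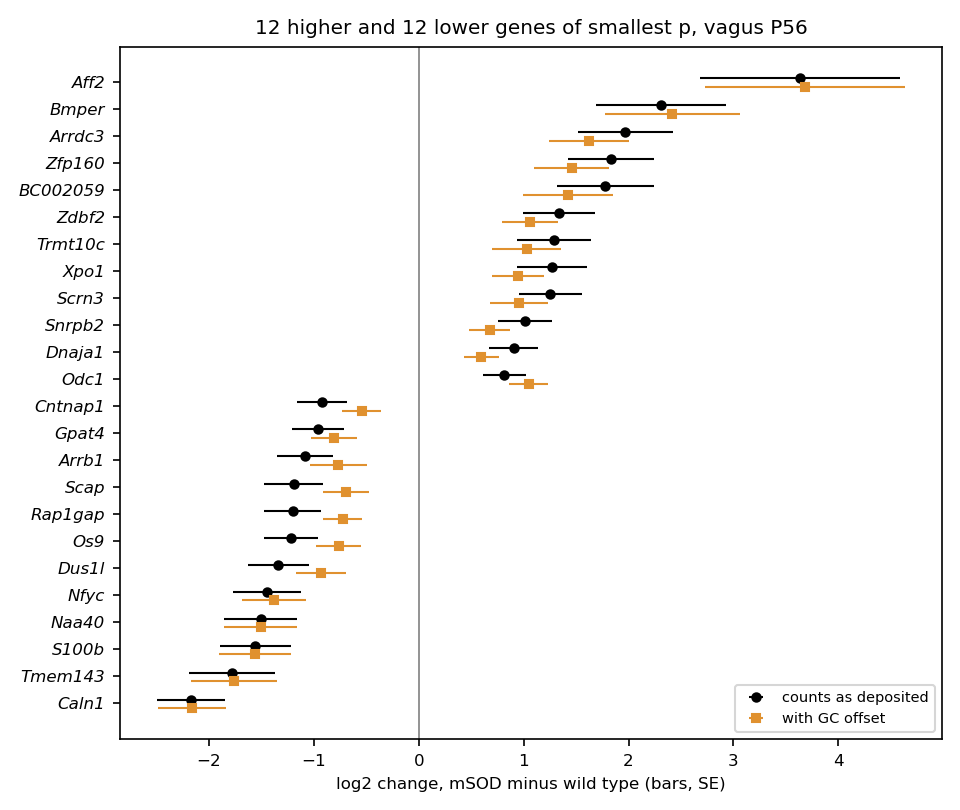
Log2 change ± SE (mSOD minus wt, CN10 at P56) of the 12 higher and 12 lower named genes, with the counts as deposited and with the GC offset. The offset leaves every gene on its side of 0, and the change of Arrdc3 goes from 1.97 to 1.63.

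Other genes were called when 1 library was left out but not with all 6. Adora1, the adenosine A1 receptor, averaged 1.36 ± 0.395 CPM in mSOD and 4.56 ± 2.40 CPM in wt, without overlap (log2 change -1.73). Its adjusted p in edgeR was 0.0896 with all libraries and 0.0450 without wt replicate 3. Mospd3 had a change of -1.52 (adjusted p = 0.196, and 0.0257 without mSOD replicate 2), and its mSOD value of 16.4 CPM in replicate 2 lay above the wt value of 15.4 CPM in replicate 1. Mpzl3 (2.02, adjusted p = 0.219) and Sec63, a translocon component of the endoplasmic reticulum (0.67, adjusted p = 0.331), also had overlapping groups, and both had an adjusted p of 0.0246 without wt replicate 1. Mpzl3 was the gene called by limma-voom (adjusted p = 0.0247). In all, 35 genes passed the adjusted threshold in at least 1 of the 6 fits without 1 library, and 32 of them did not pass with all 6 libraries.

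The list of neuronal calcium sensors that holds Caln1, a mix of EF-hand proteins that includes calmodulin, was mostly lower. Of the 17 tested, 14 had a lower fitted level, with a median log2 change of -0.23. At an unadjusted p under 0.05, 6 were lower and 1 was higher (41.2% in all). Ncs1, neuronal calcium sensor 1, averaged 47.4 CPM in mSOD and 85.9 CPM in wt (-0.86). Cabp1, a calmodulin-like regulator of calcium channels, averaged 12.9 and 26.5 CPM (-1.05), and the calmodulin gene Calm3 had a change of -0.64. Kcnip4, a potassium channel partner, stood on the other side with 717 CPM in mSOD and 435 CPM in wt (0.72). With the GC offset, 4 were lower and none higher at that level (23.5%) and the median was -0.16. Only Caln1, which is itself counted among the lower genes of both fits, passed the adjusted threshold in either fit.

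The AMPA and kainate receptors and their partners, the list that holds Syndig1l, gave 28 tested genes, 4 lower and none higher at an unadjusted p under 0.05 (14.3%), with a median of -0.16. Those 4 included Syndig1l itself, Prrt1, an AMPA receptor partner (-0.55), Grik5, a kainate receptor subunit (-0.71), and Cnih3, an auxiliary subunit. Cnih3 had no count in the 3 mSOD libraries and stood at 4.56, 2.88 and 0.238 CPM in wt, at least 4.54-fold lower against the 3-count floor (adjusted p = 0.241, edgeR). None of the pore-forming AMPA receptor subunits had an unadjusted p under 0.05: the log2 change was -0.16 for Gria1, 0.34 for Gria2, -0.12 for Gria3 and 0.10 for Gria4. With the GC offset 3 were lower, 2 were higher (17.9%), the median was 0.03 and Prrt1 had a change of 0.11. Among the NMDA and metabotropic receptors, 1 of 13 was higher (Grin2a, 0.74) and 2 were lower at an unadjusted p under 0.05, Grm5 (-1.80) and Grin1 (-0.73), with a median of -0.26. The offset left 1 higher and 1 lower, with a median of 0.23.

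Of 22 genes of the receptors for the inhibitory transmitters GABA and glycine, 17 had a higher fitted level, with a median of 0.26, but 2 higher and none lower at an unadjusted p under 0.05 (9.09%) were no more than the share over all genes. The GC offset left 3 higher and 1 lower, with a median of 0.15. Glrb, the beta subunit that anchors glycine receptors, stood at 345, 328 and 363 CPM in mSOD and 205, 174 and 187 CPM in wt, without overlap (log2 change 0.87, adjusted p = 0.281, edgeR).

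Potassium channels gave 11 of 45 genes lower (24.4%) and none higher at an unadjusted p under 0.05, with a median of -0.27. The GC offset left 3 lower (6.67%) and none higher, with a median of -0.06. Kcnc4, a channel of the fast Kv3 family, stood at 16.3, 29.4 and 17.96 CPM in mSOD and 34.5, 39.7 and 64.9 CPM in wt (-1.13, adjusted p = 0.197, edgeR). Kcnk3, the acid-sensitive leak channel TASK-1, was 26.7, 27.8 and 29.7 CPM in mSOD against 34.1, 57.1 and 54.5 CPM in wt (-0.79). For both genes every mSOD library was below every wt library. Kcnj9, a G protein-gated inward rectifier, and the pacemaker channel Hcn2 had changes of -1.24 and -1.21. No voltage-gated sodium channel of 11, and 1 calcium channel of 15 (Cacna1g, -0.86), had an unadjusted p under 0.05.

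Of 18 cholinergic genes, which define the transmitter of these neurons, 1 was higher and 2 were lower at an unadjusted p under 0.05 (16.7%), with a median of 0.12. Under the offset 1 was lower, none higher and the median was 0.20. The log2 change was -0.31 for Chat, -0.55 for Slc18a3, the vesicular acetylcholine transporter, 0.51 for Slc5a7, the choline transporter, and -0.60 for Ache, acetylcholinesterase. Lynx1, a brake on nicotinic receptors, had a change of -0.79 and Chrm2, the M2 muscarinic autoreceptor, one of 0.84.

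Vagal neuropeptides and gut hormone receptors varied widely between single libraries. Of 37 tested, 2 were higher and 2 lower at an unadjusted p under 0.05 (10.8%), with a median of -0.26, or -0.20 with genes at 0 taken at their bound. The offset left 1 higher and none lower, with a median of 0.01. Npy stood at 38.9, 7.99 and 3.19 CPM in mSOD and 159, 65.8 and 168 CPM in wt, without overlap (log2 change -2.95, adjusted p = 0.352, edgeR). Its receptor gene Npy2r went the other way, at 137, 90.0 and 93.8 CPM against 18.9, 25.7 and 102 CPM, where wt replicate 3 lay inside the mSOD range (1.13). Galanin (Gal) was high in all 6 libraries, at 1406, 2087 and 1524 CPM in mSOD and 1820.4, 1527 and 1662 CPM in wt. Vip stood at 37.8, 47.9 and 51.7 CPM against 24.8, 15.5 and 17.1 CPM (1.25, unadjusted p = 0.109). The cholecystokinin receptor gene Cckar averaged 115 and 84.8 CPM and Cartpt 402 and 282 CPM, with overlapping groups.

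Cytosolic chaperones included several abundant genes with higher levels in mSOD. Of 22, 7 were higher and 3 lower at an unadjusted p under 0.05 (45.5%), with a median of 0.22, and with the GC offset 8 were higher, 2 lower (again 45.5%) and the median was 0.33. Hsp90aa1, the inducible Hsp90, stood at 4456, 3192 and 3825 CPM in mSOD and 3115, 2392 and 2006 CPM in wt (0.61, adjusted p = 0.241, edgeR). Hspa1b, the heat-inducible Hsp70, was 6.23, 6.91 and 13.4 CPM against 0.845, 1.34 and 3.09 CPM (2.34, adjusted p = 0.241). The groups did not overlap for either gene. Hspe1 (0.57), a member of this list that is mitochondrial rather than cytosolic, also had an unadjusted p under 0.05. So did St13 (0.64) and Dnajb6 (0.48). On the lower side were Hsf1, the factor that drives heat shock genes, at 10.7, 16.8 and 14.4 CPM against 21.8, 33.9 and 30.4 CPM (-1.04), the small heat shock protein gene Cryab (-1.75) and Dnajb2 (-0.73). No chaperone passed the adjusted threshold.

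The unfolded protein response gave 2 higher and 1 lower of 22 at an unadjusted p under 0.05 (13.6%), with a median of 0.19. Under the offset 4 were higher, none lower and the median was 0.13. Dnajb9, a cochaperone of the endoplasmic reticulum, stood at 105, 120 and 101 CPM in mSOD and 48.0, 67.7 and 56.4 CPM in wt (0.92), and the sensor gene Atf6 had a change of 0.67. Ppp1r15a, a phosphatase subunit that restores translation, had a change of -1.32. The stress effectors Atf4 (0.23), Ddit3 (-0.15) and Hspa5 (0.40) did not have an unadjusted p under 0.05 with the deposited counts. With the GC offset Atf4 had a change of 0.66 (unadjusted p = 0.0187, adjusted p = 0.492, edgeR) and Ddit3 one of -0.24 (unadjusted p = 0.618).

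In the nerve injury list Atf3 and Sprr1a were at or near 0. Atf3, an injury-induced transcription factor, was at 0, 0 and 0.399 CPM in mSOD and 0.169, 0.192 and 0.238 CPM in wt, and Sprr1a had no count in mSOD and was at 0.676 CPM in 1 wt library. Others in the list were abundant in both genotypes, such as the growth cone gene Gap43 at 984.7 and 1084.5 CPM on average in mSOD and wt. Of 21 such genes none was higher and 2 were lower at an unadjusted p under 0.05 (9.52%; Npy and Csf1, -1.07), with a median of 0.00, and none in either direction with the GC offset. For p53 targets and cell death genes none of 21 had an unadjusted p under 0.05, with a median of -0.29 (0.08 with the GC offset, with 1 higher and 1 lower, and between -0.17 and 0 without any 1 library).

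The oxidative stress list, which bears on the enzyme affected in these mice, was divided. Of 29 genes, 3 were higher and 5 lower at an unadjusted p under 0.05 (27.6%), with a median of -0.03, and with the GC offset 2 were higher and 2 lower with a median of 0.07. Catalase (Cat, 0.58), thioredoxin reductase (Txnrd1, 0.69) and Prdx4 (0.55) were on the higher side. Prdx5 (-0.73), Prdx6 (-0.42), Srxn1 (-0.54) and the metallothioneins Mt1 (-0.56) and Mt3 (-0.70) were on the lower side. Autophagy and lysosome genes gave 7 higher and 3 lower of 32 (31.2%), with a median of 0.04, and with the GC offset 4 higher and 2 lower with a median of 0.15. Among these, Sqstm1, the p62 autophagy receptor, averaged 751 and 565 CPM (0.41), Ctsb, cathepsin B, 612 and 433 CPM (0.50), and Atg7, an enzyme of autophagosome formation, 8.88 and 17.7 CPM (-0.99).

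Genes linked to amyotrophic lateral sclerosis gave 4 higher and 2 lower of 30 at an unadjusted p under 0.05, with a median of 0.16, and with the GC offset 4 higher and none lower with a median of 0.14. Those higher included Tardbp, which encodes TDP-43 (0.57), Nek1 (0.68) and Ubqln2, a ubiquitin shuttle (280, 235 and 345 CPM in mSOD, 162, 170 and 148 CPM in wt, 0.84). The kinesin gene Kif5a was one of the lower ones (-0.59). In the neurofilament and axonal transport list 4 of 35 were higher and 7 lower at that level, with a median of -0.19 (31.4% in all), and with the GC offset 5 were higher and 1 lower with a median of 0.09. Its lower members included Map1a (-0.73) and Dctn1, the dynactin subunit p150 (-0.73), and its higher ones Dync1i1, a dynein chain (0.60). The neurofilament genes did not pass: Nefl had a change of 0.45, Nefm 0.39 and Nefh -0.44, the last becoming 0.08 with the GC offset.

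Respiratory chain genes of the nucleus and of the mitochondrion lay on opposite sides. All 15 mitochondrially encoded genes had a higher fitted level in mSOD, with a median of 0.55, 3 at an unadjusted p under 0.05, and in 10 of the 15 the groups did not overlap with mSOD higher, against 7.69% of all genes tested. mt-Co1, a core subunit of complex IV, stood at 19974, 19104 and 18155 CPM in mSOD and 14966, 12127 and 8457 CPM in wt (0.69, unadjusted p = 0.0352). Of 36 nuclear complex I genes, 9 were lower (25.0%) and none higher at that level, with a median of -0.29, and of 34 genes of complexes III to V, 7 were lower and 4 higher (32.4%), with a median of -0.33. With the GC offset the medians were 0.22 for the mitochondrial genes, with none at an unadjusted p under 0.05, -0.11 for complex I, with 2 lower and none higher, and -0.09 for complexes III to V, with 3 lower and 2 higher.

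Ribosomal protein genes, which build the cytosolic ribosome, were mostly lower. Of 57, 22 were lower (38.6%) and none higher at an unadjusted p under 0.05, with a median of -0.42, and with the GC offset 6 were lower, 1 was higher (12.3%) and the median was -0.22. Glycolysis gave 4 lower (21.1%) and none higher of 19, with a median of -0.36, and with the GC offset 1 lower and 1 higher with a median of -0.01. In CN12 at P56, with the deposited counts, the medians of these lists had the other sign. They were 0.47 for the ribosome, 0.31 for complex I, 0.28 for glycolysis and -0.67 for the mitochondrial genes. The correlation of log2 change with GC content also had the other sign there (0.49, against -0.51 in CN10 at P56). Medians with the GC offset are not given for CN12, and the part of GC content in these signs was not tested. CN10 at P112 gave 0.17 for the ribosome and -0.02 for the mitochondrial genes. These differences between groups of lists were not tested. Leaving out 1 library moved the number of ribosomal genes at an unadjusted p under 0.05 between 2 and 33, and that of complexes III to V between 0 and 19.

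These counts depended on single libraries at both ends of the first principal component. Over all genes, the 13.4% at an unadjusted p under 0.05 became 6.93% without mSOD replicate 1 and 7.1% without wt replicate 3. The ribosomal list had 2 such genes without either library, and complexes III to V and the mitochondrial genes had none. Complex I had none without mSOD replicate 1 and 5 without wt replicate 3, and glycolysis none and 1. The medians of these 5 lists kept their sign in both fits, at -0.26 and -0.21 for the ribosome, -0.17 and -0.24 for complex I and 0.48 in both for the mitochondrial genes. The chaperones gave 5 higher and 2 lower in both fits. Potassium channels gave 5 and 8 lower, and the calcium sensors 4 and 5 lower. The autophagy list had 3 genes without mSOD replicate 1 and 2 without wt replicate 3 in place of 10, the neurofilament and transport list 4 and 6 in place of 11, the oxidative stress list 4 and 2 in place of 8, and the ALS-linked list 3 and 1 in place of 6.

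**Figure D5:**
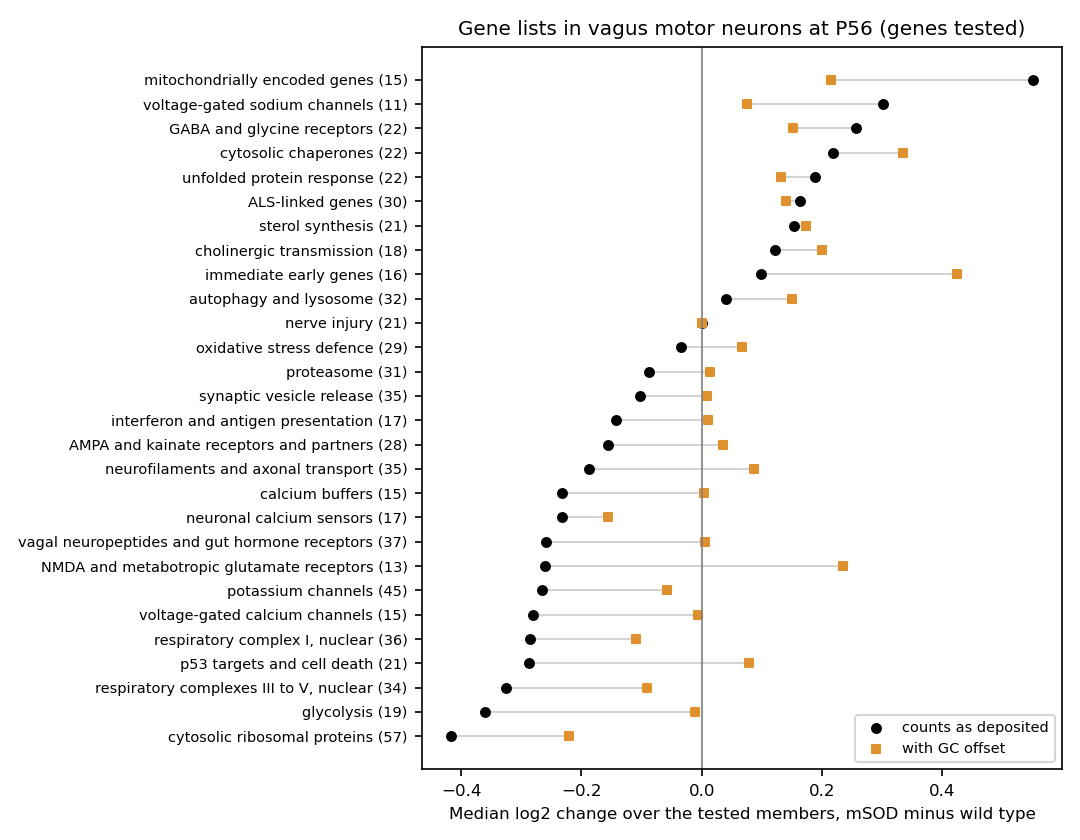
Median log2 change (mSOD minus wt, CN10 at P56) of the tested members of 28 gene lists, with the counts as deposited and with the GC offset, and the number of genes tested in each. The ribosomal median goes from -0.42 to -0.22, the mitochondrially encoded median from 0.55 to 0.22 and the chaperone median from 0.22 to 0.33; 10 of the 28 medians go from below to above 0 with the offset.

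Sterol synthesis genes were 4 higher and 2 lower of 21 at an unadjusted p under 0.05 (28.6%, median 0.15), among them the squalene epoxidase gene Sqle (0.57) and Fdps (-0.69), and 3 higher and none lower with the GC offset (median 0.17). Proteasome subunits gave 4 higher and 1 lower of 31 (16.1%, median -0.09), and 2 higher and none lower with the offset (median 0.01). Synaptic vesicle genes gave 1 higher, Snap25 (0.64), and 3 lower of 35 (11.4%, median -0.10), among them synaptophysin (Syp, -0.73), and 1 in each direction with the offset. In the immediate early list Egr1 averaged 14.0 CPM in mSOD and 3.72 CPM in wt (1.91) and Npas4 0.205 and 1.47 CPM (-2.73), 1 higher and 1 lower of 16 (12.5%, median 0.10), and 1 higher and none lower with the offset (median 0.42). Egr1 ranged from 1.94 to 27.1 CPM in mSOD and from 1.92 to 4.73 CPM in wt, so its groups overlapped. Interferon and antigen presentation genes gave 1 higher, B2m (0.79), and 2 lower of 17, Tap2 (-3.55) and Stat2 (-0.76) (17.6%, median -0.14), and 1 lower and none higher with the offset (median 0.01). None of these genes passed the adjusted threshold with the deposited counts or with the offset.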

How the data were processed

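The authors' deposited table holds whole-number counts of reads per gene for 54 libraries. Per the submitters' processing notes, reads were aligned with STAR 2.7.0e to GRCm39/mm39; the counting program and annotation are not given in the sources used here, so genes that share reads with copies or antisense partners are uncertain. The authors' deposited RPKM table was not used for tests. Groups came from the labels. Members and gene lists were chosen with earlier results of these data known. The human SOD1 row counted towards library sizes but not in tests. Genes kept by edgeR's filterByExpr over the 54 libraries were fitted together (16 groups and sequencing project, TMM factors, edgeR 4.0.16 quasi-likelihood test in R 4.3.3, Benjamini-Hochberg adjustment over 18493 genes). SE is the log2 change divided by the square root of F. CPM used TMM-scaled library sizes. By rule, the text names called genes, the 12 higher and 12 lower of smallest p with groups that do not overlap and at least 5 CPM, 5 genes called in fits without 1 library, and up to 4 members of each list by p; other members named were chosen after their values were seen. Alternatives used DESeq2 1.42.0, limma 3.58.1 (voom), other filters and scalings, and libraries left out. GC content was computed for 18416 genes from a GRCm38 annotation, so no coordinates are given. Scripts were tested on simulated data; figures used matplotlib 3.10.9. A few genes are not reported here.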

Additional observations from a re-analysis of the deposited data

Results flagged for a closer look

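The genotype effect on Caln1, the calcium sensor gene, differed between nuclei by a test of the difference itself. Its log2 change between mSOD and wt in CN10 at P56 lay below that in CN12 at P56, with a difference of -2.16 (SE 0.40, adjusted p = 0.0367, edgeR's quasi-likelihood test). In CN10 the 3 mSOD libraries were all below the 3 wt libraries, and in CN12 the groups overlapped, from 283 to 356 CPM in wt and from 310 to 341 CPM in mSOD. This difference was not called in edgeR with only the libraries of project P11355, without the project term or with only the 4 groups compared, nor without mSOD replicate 3 or wt replicate 3 of CN10 or wt replicate 1 or mSOD replicate 2 of CN12.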

How the results depend on the processing

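The number of genes called between genotypes in CN10 at P56 was 3. It was 79 without a filter on low counts, 17 with DESeq2, 1 with only the libraries of project P11355, 1 with limma-voom and sample quality weights, and 0 in edgeR with only the 2 groups compared (1603 genes there at an unadjusted p under 0.05). Without 1 library in turn it ranged from 1 to 24, with 24 without mSOD replicate 2, 14 without wt replicate 1, and 1 without mSOD replicate 1 or 3. With a GC offset or a GC and length offset, both chosen after seeing the data, it was 4. For the difference from CN12 at P56, 0.00541% of genes tested were called. The share was 0.0108% with RLE size factors and without the human SOD1 row, 0.0131% with a filter of 5 CPM, 0% in edgeR with only project P11355, without the project term and with only the groups compared, 2.11% without a filter, 3.39% with DESeq2 and 7.45% with limma-voom. Without 1 library it ranged from 0% to 5.77%, with 5.77% without CN10 mSOD replicate 2, 4.59% without CN10 wt replicate 1, 5.34% without CN12 wt replicate 3 and 4.49% without CN12 mSOD replicate 3. At an adjusted p under 0.1 in place of 0.05, 1188 genes passed with all libraries. For the difference from CN10 at P112 the count of 0 became 30 without a filter, 8 with DESeq2 and 5 with limma-voom, and ranged from 0 to 2 without 1 library. P112 libraries come from another project, so this difference could not be fitted within P11355. For the difference from CN3/4 the count of 0 became 48 without a filter, 5 with DESeq2 and 1 (Caln1, adjusted p = 0.0303, edgeR) with the GC offset, and ranged from 0 to 1 without 1 library.

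A few named genes turned direction, none of them past the adjusted threshold. With the GC offset and the GC and length offset, Prrt1 stood at 0.11 and 0.083, Nefh at 0.082 and 0.050 and Hpcal1 at 0.16 and 0.12. S100a11 stood at 0.027 with limma-voom and 0.030 with the GC and length offset. Without 1 library, mouse Sod1 ranged from -0.14 to 0.033, Atf3 from -2.88 to 0.063, S100a11 from -0.28 to 0.15, Atf4 from -0.023 to 0.47, Ddit3 from -0.40 to 0.048 and Gal from -0.15 to 0.11. The cause of these shifts was not tested. No paired analysis was possible because the labels give no replicate numbers that the groups share. Depth limits the called genes: Syndig1l and Mansc1 rest on 15 or fewer counts in every library.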
